A study of Drosophila melanogaster with 6 samples.

Results

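The baseline transcriptome of control S2 cells was described from 3 arrays, those titled as controls, out of 6 arrays in the series. The other 3 arrays held S2 cells depleted of the zinc finger protein ROW by RNA interference and were not used for the levels given here. Total RNA was hybridised to the Affymetrix Drosophila Genome 2.0 array after isothermal amplification of 25 ng per sample and labelling with biotin. The labels name the control cells wild type, and the treatment text attached to every array mentions soaking in double-stranded RNA against ROW only. Whether the controls were left untreated or were given another double-stranded RNA is therefore not stated. The cells grew in Schneider's medium with streptomycin, penicillin and serum, and the labels do not say if each array had a culture of its own, so the spread between arrays may be technical. All arrays come from a single cell line in culture. The row transcript itself read 10.44, 10.60 and 10.54 on the 3 control arrays, in log2 units.

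S2 is a line derived from late embryos of the fruit fly and has features of hemocytes, the circulating blood cells of the fly. Most hemocytes are plasmatocytes, phagocytes that also secrete the collagen and laminin of basement membranes. Crystal cells carry the prophenoloxidases of melanisation, and lamellocytes encapsulate parasites. The line is known as male by its dosage compensation, is routinely used to study the Toll and Imd immune pathways, and takes up double-stranded RNA from its medium.

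All levels below are log2 values made by the authors with RMA, given as the mean ± SD of the control arrays (n = 3) or as the values on replicates 1, 2 and 3 in that order. The 18769 probe sets that are not array controls included 13647 with 1 gene symbol, and these named 11982 genes. A gene was represented by its brightest probe set. Brightness depends on the probes of a set as well as on the transcript, is not scaled by transcript length, and so does not order genes by transcript number. A low value on a gene with a single probe set cannot separate a missing transcript from a poor probe set. In bulk RNA, fewer cells that express a gene and less RNA per cell cannot be told apart.

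The levels formed a low and a high group of genes with no gap between them. Between 3 and 4 log2 units there were 2150 genes, between 6 and 7 there were 452, and between 10 and 11 there were 1594. The median over all genes was 6.79. The array carries 17 control probe sets called tags, which are not named for fly genes. The 95th percentile of their means, 3.25, was taken as background, and 9648 genes (80.5%) lay above it on all 3 arrays. That level is low, because 4243 genes lay above or across it without reaching the upper group. Another level was therefore taken from the 112 odorant and gustatory receptor genes, which are known for sensory neurons. Their levels ran from 1.95 to 9.22 with a median of 2.97, and their 95th percentile was 6.41. It is called the receptor level below. It fell in the valley between the groups, and 6108 genes (51%) exceeded it on all 3 arrays. At or below background on all 3 arrays were 1631 genes (13.6%). "Above the receptor level" and "at or below background" are used below in this sense, always for all 3 arrays. Every count of a list below is to be read beside these shares of all genes.

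**Figure D1:**
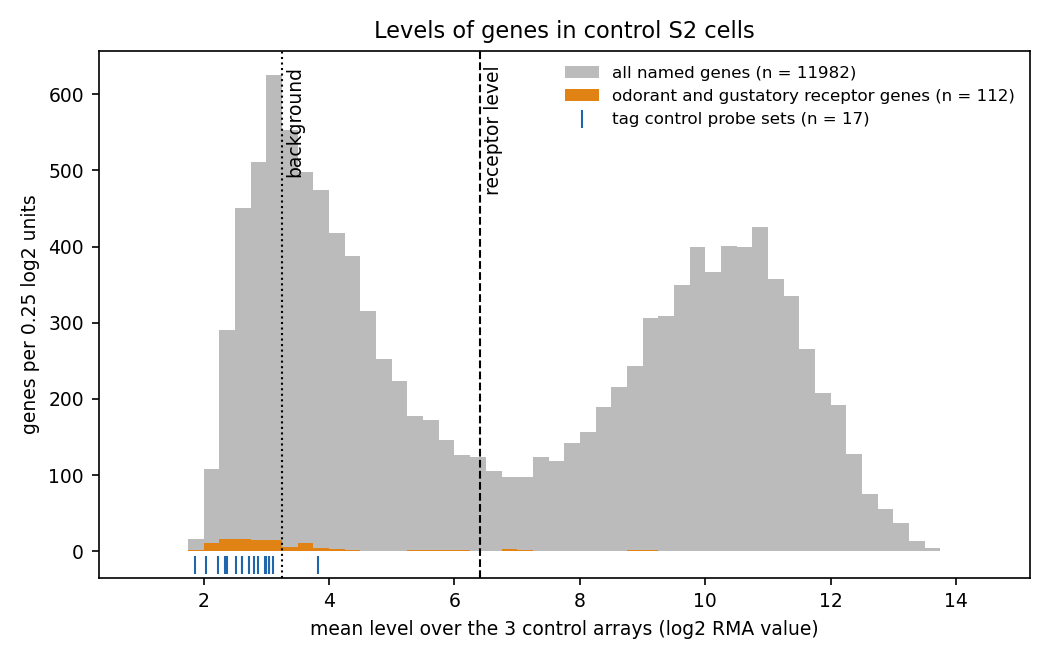
Number of genes per 0.25 log2 units (y axis) against the mean level of a gene over the 3 control arrays (x axis, log2 RMA value). Grey bars are all 11982 genes, orange bars the 112 odorant and gustatory receptor genes, blue ticks the 17 tag control probe sets, the dotted line the background of 3.25 and the dashed line the receptor level of 6.41. The genes form a low and a high group with a valley near the dashed line.

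Genes next to either level are uncertain by construction. Just above the receptor level in the mean lay CG10041 (6.41), CG14054 (6.41) and eEF1alpha2 (6.41), and just below it CG10764 (6.40), jdp (6.40) and sqz (6.39). Of these, eEF1alpha2 read 6.86, 6.17 and 6.21, so its arrays lay on either side. At the background, CG30274, fd102C and Jhbp12 had means of 3.25 just above it, and CG11581, CG32236 and CG33341 had means of 3.25 just below it.

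The brightest genes of control S2 cells were those of protein synthesis. Of the 30 genes with the highest mean, 19 belonged to the list of cytosolic ribosomal proteins, namely RpL15, RpLP2, RpS26, RpL36A, RpL39, RpL32, RpLP1, RpL23, RpS20, RpL40, RpS15, RpS12, RpS21, RpS18, RpS28b, RpL37A, RpL28, RpL3 and RpL41. RpL37-1, a further ribosomal protein gene, and the translation factors eIF1, eEF5 and eEF1delta were also among them. The highest value belonged to CG5953 at 13.71, 13.72 and 13.76. RpL15 followed at 13.70, 13.68 and 13.73, and then tsr, the actin-severing cofilin of the fly, at 13.65, 13.68 and 13.68. These 3 genes differed from each other by less than 0.1 log2 units and their order carries no weight. Outside translation, the set held CtsL1, a cathepsin L protease of the lysosome (13.25 ± 0.03), ERp60 (13.21 ± 0.04) and CaBP1 (13.18 ± 0.04), which are disulfide isomerases of the endoplasmic reticulum, and Manf, a secreted factor of the same compartment (13.14 ± 0.01). The chromatin protein baf (13.16 ± 0.004) completed it. On 16 of the 30 genes the probe set carried a suffix that marks probes shared between transcripts.

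The listed genes of blood cell identity and plasmatocytes were mostly in the upper group. Of 21 such genes, 19 lay above the receptor level, against 51% of all genes, and the median of the list was 11.01. Like the other lists, it was written with earlier results of these data known, so its count depends on the members chosen. It holds the ligand Pvf2 (10.77 ± 0.01) and not the ligands Pvf1 (3.63 ± 0.13) and Pvf3 (4.51 ± 0.13), which were below the receptor level. The GATA factor srp, which specifies the blood lineage, read 11.10, 11.07 and 11.20, and its partner ush read 10.74, 10.81 and 10.86. A further GATA factor, pnr, stood at 11.13 ± 0.08. The 3 arrays were close to each other for each of these factors. The secreted and surface markers of plasmatocytes were in the upper group too. Hemolectin (Hml), a clotting protein, read 11.38, 11.49 and 11.42, the peroxidase gene Pxn read 11.98, 12.03 and 11.97, and Hemese (He), a surface glycoprotein of hemocytes, read 11.65, 11.62 and 11.72. Phagocytic receptors followed, with crq at 11.43 ± 0.04, NimC4 at 11.03 ± 0.03, drpr at 11.01 ± 0.05, eater at 10.61 ± 0.05 and the scavenger receptor Sr-CI at 10.45 ± 0.11. NimC1, the plasmatocyte antigen P1, read 7.27, 7.43 and 7.25, and Sr-CIV lay between 7.91 and 8.09. These had the lowest signal of the 19. The members below it were gcm (2.61, 2.85 and 2.66) and gcm2 (3.55, 3.51 and 3.70), which drive plasmatocyte fate in the embryo and are known to be transient there. All 3 arrays put gcm below background.

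The crystal cell genes measured lay below the receptor level, and the lamellocyte genes were mixed. Of 10 crystal cell and lamellocyte genes together, 4 (40%) lay above it, beside 51% of all genes, and 7 would with the level at the 90th percentile of the receptor genes (5.50). The Runx factor lz, which specifies crystal cells, read 4.73, 4.57 and 4.87. The crystal cell prophenoloxidases PPO1 (3.78, 3.91 and 3.94) and PPO2 (4.33, 4.76 and 4.51) were low on every array, and peb, a zinc finger factor, stood at 5.61 ± 0.04. PPO3, the prophenoloxidase known for lamellocytes, was instead at 8.56, 8.63 and 8.56. The defining lamellocyte marker atilla read 6.17, 6.04 and 6.01, just under the receptor level, and ItgaPS5 stood at 5.98 ± 0.09. The other 3 members above the level were ItgaPS4 (8.03 ± 0.01), the filamin gene cher (11.45 ± 0.03) and the kinase gene msn (10.92 ± 0.05). The last pair are also used by many other cells.

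Most listed genes of integrins, their adaptors and the basement membrane were in the upper group. Among these 14 genes, 11 (78.6%) were above the receptor level, beside 51% of all genes. The laminin chains LanA, LanB1 and LanB2 stood at 12.61 ± 0.05, 12.02 ± 0.03 and 12.43 ± 0.07, whereas wb, the alternative alpha chain, read 5.89, 5.61 and 5.55. Perlecan (trol, 8.34 ± 0.07 on its brightest probe set) was above the receptor level, and its other probe sets averaged from 8.16 down to 3.87. The collagen IV chains Col4a1 (11.85 ± 0.06) and vkg (10.08 ± 0.04), SPARC (12.84 ± 0.02), the peroxidase Pxn and papilin (Ppn, 9.62 ± 0.13) were above that level too. These matrix genes belong to the blood cell list and are not among the 14. Of the integrins, the beta chains mys (11.77 ± 0.06) and Itgbn (10.08 ± 0.06) and the alpha chains mew (9.88 ± 0.05), scb (7.93 ± 0.07) and ItgaPS4 were above the level. The alpha chain if read 6.25, 6.66 and 6.37, on either side of the level, and the alpha chain ItgaPS5 (5.98 ± 0.09) was below it. Integrin adaptors rhea (talin, 9.81 ± 0.10) and Ilk (11.30 ± 0.01) were in the upper group.

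Beside 51% of all genes, 14 of 18 epithelial genes (77.8%) were above the receptor level, and E-cadherin was not. Among these were the polarity proteins par-6 (12.30 ± 0.02), dlg1 (11.01 ± 0.03), scrib (10.17 ± 0.07) and aPKC (9.94 ± 0.04), the catenins alpha-Cat (11.60 ± 0.05) and p120ctn (11.13 ± 0.02), and the septate junction genes cora (11.62 ± 0.04), kune (10.67 ± 0.06) and Nrx-IV (8.44 ± 0.12). The other probe sets of dlg1 averaged 6.80, 6.57 and 6.27, around the receptor level. The 4 members not above it were E-cadherin (shg) at 5.19, 5.27 and 5.03, the adhesion molecule ed at 4.57, 4.36 and 4.73, the apical determinant crb at 6.33, 6.28 and 6.39, and the epidermal transcription factor grh at 4.77, 4.87 and 4.80. Each of them was below 6.41 on all 3 arrays and above background on all 3.

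**Figure D2:**
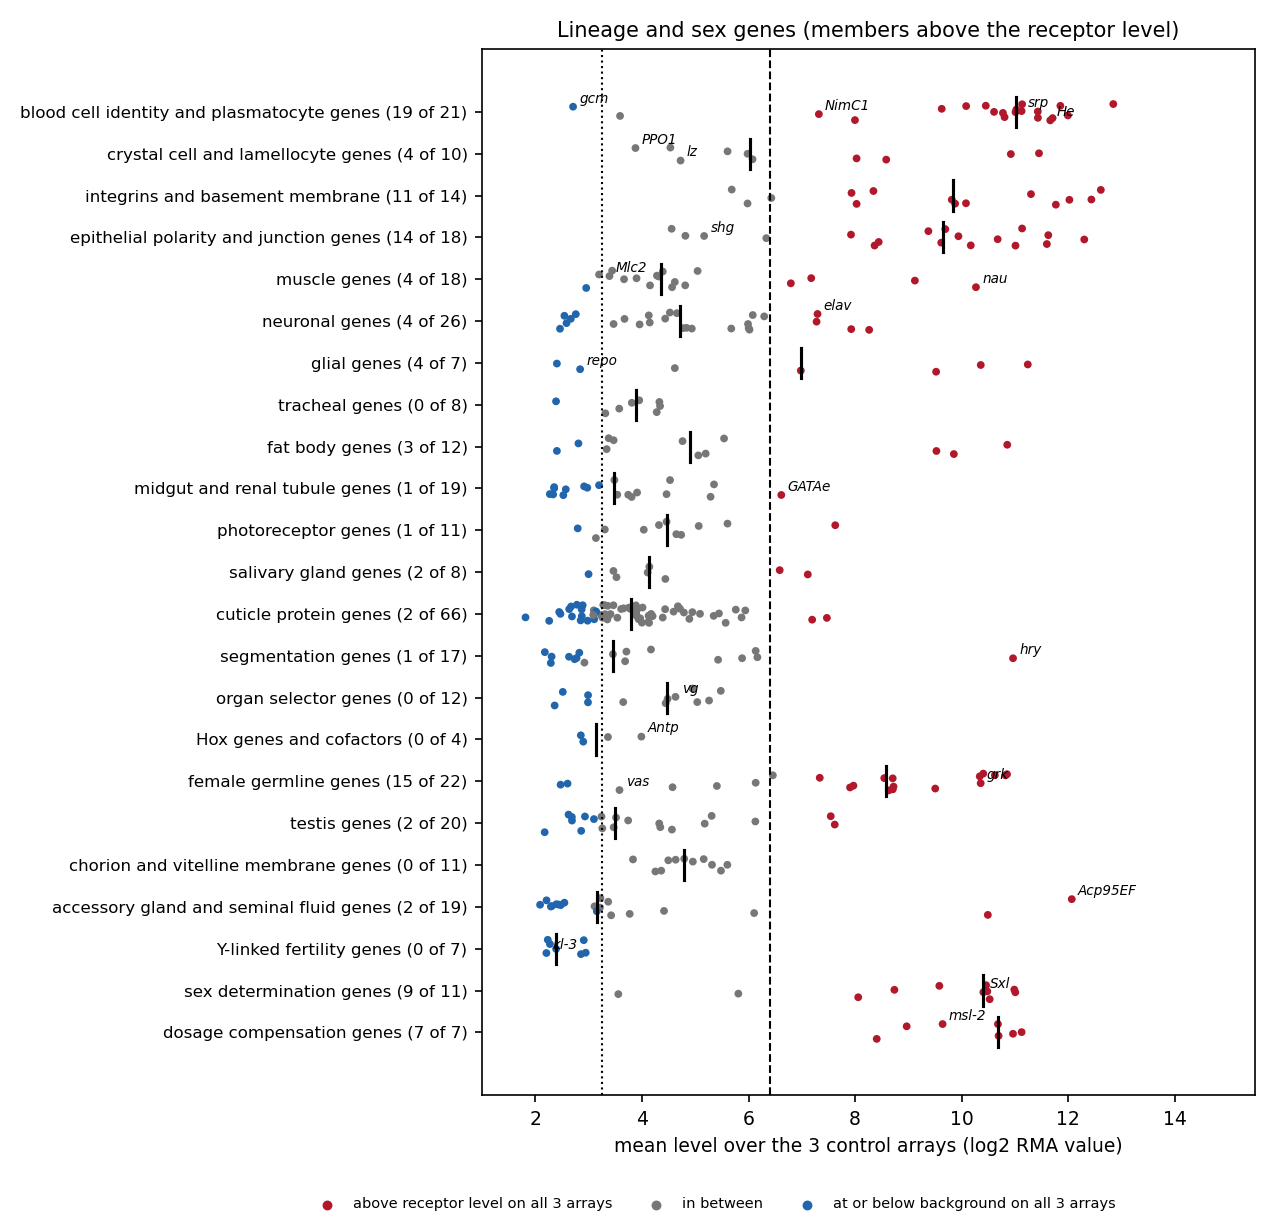
Mean level of each member over the 3 control arrays (x axis, log2 RMA value) for 23 lists of lineage and sex genes (y axis, with the number of members above the receptor level out of those measured). Each point is a gene, coloured by its class, black bars are list medians, and the dotted and dashed lines are the background and the receptor level. Blood cell, basement membrane, polarity, sex determination and dosage compensation genes lie mainly right of the dashed line, and most differentiated tissues lie left of it.

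Genes of other differentiated tissues were mostly in the low group. Taken over 19 lists of such tissues, patterning genes, germline and chemosensory genes included, 51 of 491 measured genes (10.4%) exceeded the receptor level, 259 (52.7%) exceeded background and 181 were at or below it. The chemosensory receptors among them set the receptor level, so their own count of 6 of 112 follows from its definition. Without them, 45 of 379 genes (11.9%) exceeded the receptor level, beside 51% of all genes. Of the same 379, 225 (59.4%) exceeded background and 113 (29.8%) were at or below it, beside 80.5% and 13.6% of all genes. None of 8 tracheal genes (btl, vvl, serp, verm, kkv, pio, uif and Gasp) was above the receptor level, and their highest mean was 4.34. Of 19 midgut and renal tubule genes, only GATAe, an endodermal GATA factor, was above it, at 6.49, 6.73 and 6.61. Of 66 cuticle protein genes, only Cpr67Fb (7.47 ± 0.18) and Cpr51A (7.19 ± 0.17) were above it.

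Most contractile muscle genes were low while the myogenic factor nautilus (nau) was not. Nau, the MyoD protein of the fly, read 10.28, 10.26 and 10.26. Myosin light chains Mlc1 (4.84, 3.83 and 4.50) and Mlc2 (3.56, 3.19 and 3.42), troponin T (up, 3.44 ± 0.06), paramyosin (Prm, 4.62 ± 0.09), tropomyosin 2 (Tm2, 4.56 ± 0.24) and the mesodermal factor twi (3.19 ± 0.09) lay in the low group. The other 3 of the 18 muscle genes above the receptor level were Strn-Mlck (9.12 ± 0.10), the nesprin Msp300 (7.18 ± 0.03) and the troponin C gene TpnC73F (6.79 ± 0.10). The calls of Strn-Mlck and TpnC73F rest on their brightest sets alone, whereas another set of Msp300 was also above the level on all 3 arrays. The lowest set of Strn-Mlck averaged 2.71 and the other set of TpnC73F 4.53, and the 5 further sets of Msp300 averaged 6.75, 6.30, 5.44, 5.11 and 3.23. With the median of the probe sets of a gene, 1 muscle gene was above the level in place of 4. In the gene table nau overlaps CG10300, which itself read 9.42. Whether the nau probe set reads transcripts of its neighbour was not tested.

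Neuronal and glial genes gave a mixed picture. Beside 51% of all genes, 4 of 26 neuronal genes (15.4%) were above the receptor level. They were brp (8.26 ± 0.03), Snap25 (7.93 ± 0.12), elav (7.29 ± 0.22) and nrv3 (7.28 ± 0.10). The active zone gene brp had 3 further probe sets, at 5.13, 4.65 and 3.54. The pan-neuronal gene elav read 7.45, 7.04 and 7.40 and overlaps arg, which stood at 10.73. No listed gene for transmitter synthesis or transport was above the receptor level. ChAT (4.83 ± 0.16), DAT (4.65 ± 0.07), Vmat (4.14 ± 0.49) and VGlut (3.47 ± 0.16) were between the levels on every array. Lower still were VAChT at 2.85, 2.51 and 2.39, Gad1 at 2.52, 3.24 and 2.51, ple (tyrosine hydroxylase) at 2.60, 2.44 and 2.34, and SerT at 2.65, 2.80 and 2.54. VAChT, Gad1, ple and SerT were below background on every array, and so was the neuroblast factor ase. Of 7 glial genes, 4 (57.1%) exceeded the receptor level, a share near the 51% of all genes. These were loco (11.24 ± 0.05), moody (10.36 ± 0.07), nrv2 (9.52 ± 0.03) and Gs2 (6.98 ± 0.08). They encode a regulator of G proteins, a receptor of the blood-brain barrier, a subunit of the sodium pump and a glutamine synthetase. The glial master regulator repo read 2.83, 2.99 and 2.70, alrm 2.40 ± 0.19 and wrapper 4.62 ± 0.49.

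Fat body, eye and salivary gland lists each had few members in the upper group. The fat body list had 3 of 12 members (25%) above the receptor level, beside 51% of all genes. They were the lipoprotein cv-d (10.85 ± 0.06), the lipid transfer protein Mtp (9.85 ± 0.09) and perilipin 1 (Lsd-1, 9.53 ± 0.06). Lsd-1 overlaps CG10214, which stood at 10.67. Larval serum and yolk protein genes were low, with Lsp2 at 2.81 ± 0.29, Yp1 at 5.54 ± 0.25, Yp2 at 5.06 ± 0.10 and Yp3 at 5.19 ± 0.14. The lipoprotein gene apolpp (3.47 ± 0.36), Fbp1 (3.37 ± 0.23), Fbp2 (4.76 ± 0.17), NLaz (3.34 ± 0.42) and the adipokinetic hormone receptor AkhR (2.40 ± 0.15) were low as well. Among 11 photoreceptor genes, only the diacylglycerol kinase rdgA was above the receptor level, at 7.69, 7.65 and 7.53. Its other probe sets averaged 7.24, 6.25 and 5.45, and it overlaps CG10962 at 9.83. The remaining photoreceptor genes (trp, trpl, inaD, chp, gl, eys, Arr1, Arr2, inaC and Gbeta76C) had means from 2.79 to 5.60. Of the salivary genes, Sgs1 (7.11 ± 0.10) and sage (6.58 ± 0.07) were above it, and Sgs3, Sgs4, Sgs5, Sgs7, Sgs8 and fkh were low, the highest mean being 4.44 (Sgs4).

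Body patterning genes were low with a single exception. The homeotic genes measured were pb (3.36 ± 0.14), Dfd (2.90 ± 0.29), Scr (2.85 ± 0.18) and Antp, and none was above background on all 3 arrays. Antp, which specifies the thorax, read 5.14, 2.89 and 3.93, so its highest array lay above background and its lowest below. Of 17 segmentation genes, only the pair-rule repressor hairy (hry) was above the receptor level (5.9%, beside 51% of all genes), at 10.93, 10.98 and 10.98. At or below background lay hb, kni, tll, hkb, odd, slp2 and gsb, with means from 2.18 to 2.82. None of 12 organ selector genes reached the receptor level. The highest were toy (5.48 ± 0.19), dac (5.26 ± 0.21) and nub (5.04 ± 0.16), and so, eya, bi and pdm2 were at or below background. The remaining selectors ey, vg, ap, Dll and bap had means from 3.65 to 4.95.

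The 51 genes of other tissues in the upper group were set against the reference annotation for overlap with other genes. Of them, 19 (37.3%) overlap a gene that was itself above the receptor level, 14 overlap only genes that were not measured above it, and 18 (35.3%) overlap no gene. Among all 6093 genes above the receptor level that the annotation holds, 33.4% overlap another such gene and 47.2% overlap none, so the former share is close to that of the upper group at large. The odorant receptor Or43b (9.22, 9.27 and 9.16) overlaps Cul1, which stood at 11.49, and the ionotropic receptor Ir76a (10.19 ± 0.004) overlaps CG14102 at 9.07. The seminal fluid gene Acp95EF, at 12.06, 12.06 and 12.08 the brightest of the 51, overlaps Spase22-23 at 8.45. By contrast, the gustatory receptor Gr61a (8.77 ± 0.09), the seminal fluid gene Sfp26Ad (10.47, 10.58 and 10.42), hry and brp overlap none. Whether signal of an overlapping transcript enters these probe sets was not tested.

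Of 11 sex determination genes, 9 (81.8%) were above the receptor level, beside 51% of all genes. Sex-lethal (Sxl), the switch gene of female development, read 10.35, 10.48 and 10.38 on its brightest probe set and had means of 8.96 and 5.62 on its others. The splicing factors tra (11.01, 11.02 and 10.94) and tra2 (10.54, 10.56 and 10.47) and the cofactors fl(2)d (10.48 ± 0.02), nito (11.01 ± 0.06), vir (8.06 ± 0.10) and ix (10.46 ± 0.06) were in the upper group. Sxl, tra and tra2 act through alternative splicing, and which splice forms each probe set reads was not examined here. The terminal genes dsx and fru also passed. One probe set of dsx read 9.47, 9.61 and 9.66 and the other 2.16, 2.29 and 2.25, a difference between probe sets of 1 gene that is far larger than the spread between arrays. The 7 probe sets of fru had means from 5.37 to 8.74. Not above the receptor level were her (5.81 ± 0.03) and the X-linked numerator element sc (3.55 ± 0.27), which acts in the early embryo.

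All 7 dosage compensation genes were above the receptor level. The MSL complex binds the male X chromosome and raises its transcription. Its subunit msl-2, whose protein is made in males only, read 9.65, 9.63 and 9.64. The other subunits msl-1 (11.12 ± 0.03), mof (10.69 ± 0.03), mle (10.68 ± 0.15) and msl-3 (8.40 ± 0.06) were present too, as were Clamp (10.96 ± 0.08), which recruits the complex, and Unr (8.97 ± 0.05), a regulator of msl-2 translation. The noncoding RNAs of the complex are not analysed here.

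The 7 Y-linked fertility genes were all at or below background on all 3 arrays. They are kl-2 (2.85 ± 0.11), kl-3 (2.20 ± 0.13), kl-5 (2.27 ± 0.03), ORY (2.94 ± 0.27), Ppr-Y (2.39 ± 0.14), ARY (2.23 ± 0.05) and Pp1-Y2 (2.91 ± 0.06), most of them known for the testis. Their values say nothing on whether the cells carry a Y chromosome. Testis genes at large were low, with 2 of 20 (10%) above the receptor level and 7 at or below background. The shares of all genes were 51% and 13.6%. The meiotic regulators can (2.86 ± 0.10), comr (2.93 ± 0.11) and aly (3.24 ± 0.16) and the sperm genes Mst87F (2.17 ± 0.14), dj (2.68 ± 0.15) and ProtA (2.69 ± 0.32) were low. The exceptions were twe, a Cdc25 phosphatase of meiosis (7.62 ± 0.05), which overlaps EndoGI at 12.02, and topi (7.54 ± 0.05), which overlaps none. Of 19 accessory gland and seminal fluid genes, Acp95EF and Sfp26Ad alone exceeded the receptor level, and sex peptide (SP) read 2.87, 3.31 and 3.14.

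Germline genes of the female were split. Of 22, 15 (68.2%) exceeded the receptor level, beside 51% of all genes. Of those 15, 9 overlap a gene that was above it as well, whereas 33.4% of all annotated genes above it do. Components of the piRNA pathway, which silences transposons in the germline and in follicle cells, made up much of the set. The PIWI proteins aub (10.84, 10.88 and 10.83) and piwi (8.65, 8.72 and 8.74) were above the level and AGO3 (5.41, 5.40 and 5.40) was not. The helicase spn-E (8.72 ± 0.08), the Tudor proteins krimp (10.62 ± 0.02) and tud (10.34 ± 0.02), and rhi (8.71 ± 0.03), del (10.82 ± 0.11) and cuff (7.90 ± 0.05), which are needed to transcribe piRNA clusters, were above it. Only krimp, tud and swa among the 15 overlap no other gene, beside 47.2% of all annotated genes above the receptor level. For comparison, piwi overlaps SCAR (11.18), del overlaps pths (12.36) and cuff overlaps ERp60 (13.21). The differentiation factor bam read 10.34, 10.39 and 10.49, and the gene it overlaps, CG11854, read 2.63. The EGF-like ligand grk (10.36 ± 0.05) overlaps Akap200 at 12.18. The localised determinant osk read 8.59, 8.57 and 8.48 on its brightest probe set and averaged 7.49 and 4.63 on its others, and it overlaps no gene measured above the level. The germ cell gene gcl (9.50 ± 0.09) and exu (8.63 ± 0.04), which overlaps galla-1 at 11.04, were above the level too. Lower values were those of vas at 4.20, 2.91 and 3.62, ovo at 2.26, 2.81 and 2.73, and otu at 2.50, 2.56 and 2.36. No chorion or vitelline membrane gene was above the receptor level. Cp15, Cp16, Cp18, Cp19, Cp36, Cp38, Vm26Aa, Vm32E, Vm34Ca, dec and psd had means from 3.83 to 5.60, all of them above background.

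Signalling genes were ordered by role, with roles assigned after their values had been seen. Over the Notch to TNF pathways described below, 10 of 26 ligand genes, 11 of 17 receptor genes and 74 of 85 other members were above the receptor level, against 51% of all genes. The other members are all those left, with some secreted and membrane proteins beside the intracellular ones. The median level was 4.70 for ligands, 9.03 for receptors and 9.96 for the other members. Members other than ligands and receptors were thus mostly in the upper group.

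**Figure D3:**
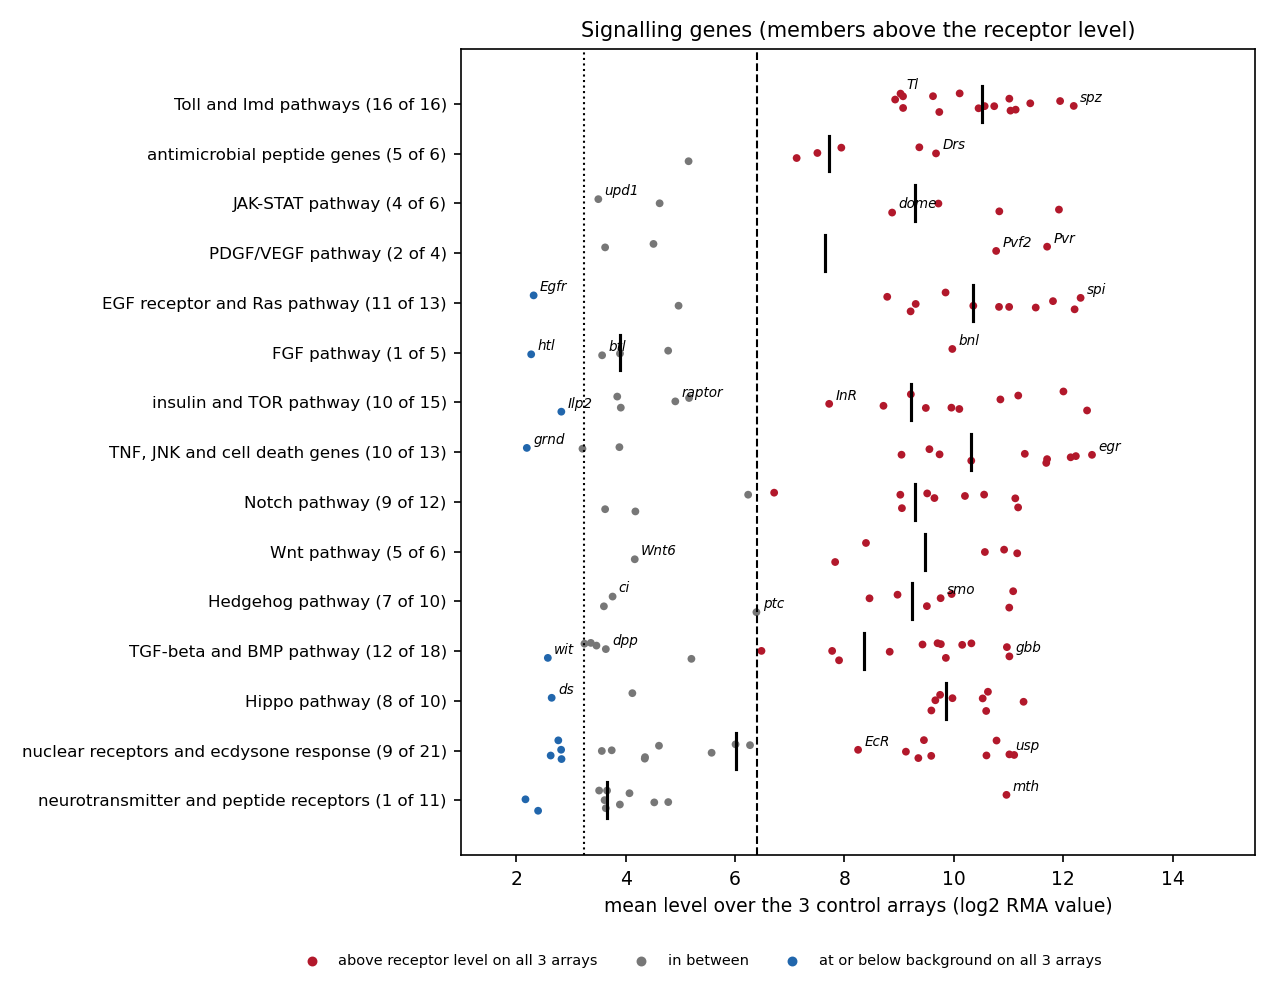
Mean level of each member over the 3 control arrays (x axis, log2 RMA value) for 15 lists of signalling genes (y axis, with the number of members above the receptor level out of those measured). Each point is a gene, coloured by its class, black bars are list medians, and the dotted and dashed lines are the background and the receptor level. All 16 Toll and Imd genes lie right of the dashed line, and Egfr, htl, wit and grnd are receptors at the far left.

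Toll and Imd signalling, the pair of pathways that detect fungi and bacteria and act through NF-kappaB factors, was complete among the genes measured. All 16 members were above the receptor level, with a median of 10.51. The ligand spz read 12.18, 12.20 and 12.20 and its receptor Tl 8.98, 8.93 and 9.17 on its brightest probe set. The other Tl probe set read 6.52, 6.22 and 6.03, on either side of the receptor level. The adaptors and kinases Myd88 (9.73 ± 0.07), tub (10.45 ± 0.05), pll (9.62 ± 0.05), imd (9.07 ± 0.05), Fadd (10.74 ± 0.02), key (11.94 ± 0.06) and IKKbeta (8.93 ± 0.04), and the caspase Dredd (10.11 ± 0.02), followed. So did the recognition proteins PGRP-LE (11.40 ± 0.03) and GNBP3 (9.07 ± 0.02). The NF-kappaB factors Rel (11.13 ± 0.02), dl (11.04 ± 0.03) and Dif (10.56 ± 0.04) and the inhibitor cact (11.01 ± 0.04) were in the same range. Of the antimicrobial peptides that these pathways induce, Drs (9.70, 9.66 and 9.66) and Mtk (9.56, 9.24 and 9.31) were the brightest. CecB stood at 7.94 ± 0.09, DptB at 7.51 ± 0.07 and AttD at 7.13 ± 0.02, above the receptor level, and Def at 5.15 ± 0.07 was not.

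The PDGF/VEGF pathway, which supports hemocyte survival and migration, had its receptor and a ligand in the upper group. Pvr read 11.65, 11.71 and 11.75 and Pvf2 read 10.78, 10.76 and 10.78. Pvf1 (3.76, 3.62 and 3.51) and Pvf3 (4.42, 4.45 and 4.65) were low on every array. JAK-STAT signalling resembled this in its receptor and transcription factor, with dome at 8.88, 8.97 and 8.76, the related receptor et at 9.72 ± 0.06 and Stat92E at 11.92 ± 0.02. Its inhibitor Su(var)2-10 stood at 10.83 ± 0.01. The measured ligands upd1 (3.33, 3.90 and 3.27) and upd2 (4.42, 4.85 and 4.59) were low.

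The EGF pathway lacked signal for its receptor and not for its ligands. Egfr read 2.16, 2.41 and 2.39 on its only probe set, below background on all 3 arrays. The ligand spi read 12.28, 12.27 and 12.40, and Krn read 9.33, 9.38 and 9.21. Star (S, 9.21 ± 0.01), which traffics spi, and the downstream proteins drk (11.81 ± 0.01), Sos (11.01 ± 0.03), Dsor1 (10.83 ± 0.03), csw (9.85 ± 0.14), ksr (8.78 ± 0.08) and aop (11.50 ± 0.06) were above the receptor level. Of the feedback inhibitors, sty stood at 12.21 ± 0.05 and the secreted aos at 4.97 ± 0.21. Intracellular members of this list also serve other receptor tyrosine kinases. FGF receptors were low, with htl at 2.20, 2.30 and 2.32 and btl at 3.43, 3.77 and 3.52. The FGF ligand bnl read 9.90, 10.02 and 10.00 on its brightest probe set and 6.41 and 6.13 in the mean on its others. The ligands ths (3.90 ± 0.11) and pyr (4.78 ± 0.21) were low.

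The insulin and TOR pathway had its receptor and kinases but little signal for insulin-like peptides. InR read 7.75, 7.55 and 7.87 and its substrate chico 9.21 ± 0.09. Akt (11.18 ± 0.02), Pdk1 (10.85 ± 0.04), S6k (11.99 to 12.02), rictor (10.10 ± 0.10), the TSC complex genes Tsc1 (9.49 ± 0.02) and gig (9.96 ± 0.02), and foxo (8.71 ± 0.05) were in the upper group. ImpL2, a secreted protein that binds insulin-like peptides, read 12.43, 12.44 and 12.44. Ilp2 was below background at 2.80, 2.94 and 2.74, and Ilp5 (3.91 ± 0.22), Ilp7 (3.85 ± 0.15) and Ilp8 (5.16 ± 0.17) were below the receptor level. So was raptor, the defining subunit of TOR complex 1, at 4.84, 5.03 and 4.86, on a single probe set.

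The TNF ligand eiger (egr) was among the brightest signalling genes, at 12.48, 12.53 and 12.56. Of its receptors, wgn read 12.22, 12.29 and 12.19 and grnd 2.20, 2.12 and 2.27, each on a single probe set. The JNK cascade members bsk (11.70 ± 0.03), hep (9.74 ± 0.07), Jra (11.30 ± 0.02) and kay (12.14 ± 0.05) and the phosphatase puc (11.69 ± 0.03), a JNK target, were above the receptor level. The caspases Dronc (10.32 ± 0.02) and Dcp-1 (9.04 ± 0.02) and the apoptosome protein Dark (9.55 ± 0.02) were also above it. The death inducers grim (3.89 ± 0.24) and skl (3.21 ± 0.25) were not.

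Most Hedgehog and BMP transducers named here were above the receptor level, with ci an exception, and the ligands hh and dpp were low. For Hedgehog, smo read 9.70, 9.79 and 9.79, and cos (9.96 ± 0.02), Su(fu) (9.51 ± 0.04), the co-receptors ihog (8.46 ± 0.04) and boi (8.97 ± 0.09), disp (11.01 ± 0.09), which releases the ligand, and rasp (11.08 ± 0.03), which acylates it, were above the receptor level. The ligand hh read 3.81, 3.63 and 3.37 and the transcription factor ci read 3.67, 3.83 and 3.80, low on each array. The receptor ptc, itself a target of the pathway, read 6.45, 6.37 and 6.36 and straddled the receptor level. For BMP and activin, the ligand gbb read 11.05, 11.07 and 10.93, mav stood at 7.78 ± 0.09 and daw at 6.48 ± 0.03, while dpp read 3.73, 3.78 and 3.41. The ligands scw (3.25 ± 0.19), Actbeta (3.47 ± 0.13) and myo (5.20 ± 0.18) were below the receptor level. The receptors tkv (9.76 ± 0.05), sax (10.97 ± 0.06), put (10.15 ± 0.05) and babo (9.43 ± 0.12) were in the upper group, and wit, known for motor neurons, was below background at 2.34, 2.77 and 2.64. Mad (9.85 ± 0.04), Med (7.90 ± 0.02), Smox (10.32 ± 0.04), shn (9.70 ± 0.04) and the inhibitor Dad (8.83 ± 0.06) were above the receptor level, and the protease tld (3.37 ± 0.10) was below it.

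For Notch and Wnt the receptors are not analysed here. Of 12 other Notch pathway genes, 9 (75%) were above the receptor level, beside 51% of all genes. They included the proteases kuz (11.12 ± 0.05) and Psn (11.18 ± 0.01), the gamma-secretase subunit pen-2 (10.20 ± 0.03), the ubiquitin ligase neur (9.51 ± 0.13), numb (9.05 ± 0.09), the corepressor H (9.65 ± 0.10) and the coactivator mam (6.72 ± 0.19). Of the target genes, E(spl)mbeta-HLH read 10.58, 10.58 and 10.50 and E(spl)m3-HLH 8.95, 9.05 and 9.07, whereas E(spl)m7-HLH (4.18 ± 0.28) and E(spl)m5-HLH (3.63 ± 0.05) were low. Targets of the same family thus lay in different groups. The glycosyltransferase fng stood at 6.24 ± 0.13. For Wnt, the secretion genes wls (11.16 ± 0.07) and por (10.92 ± 0.03), the destruction complex scaffold Axn (10.57 ± 0.06), the feedback inhibitor nkd (8.39 ± 0.13) and the glypican dlp (7.83 ± 0.05) were above the receptor level. Wnt6, the only Wnt measured, read 4.12, 4.07 and 4.32. In the Hippo pathway, the growth-restricting kinase cascade, hpo (9.98 ± 0.02), sav (9.75 ± 0.06), wts (10.53 ± 0.03), mats (10.62 ± 0.02), the coactivator yki (10.59 ± 0.01) and the upstream proteins ex (11.27 ± 0.07), Mer (9.66 ± 0.06) and kibra (9.59 ± 0.08) were present. The atypical cadherin ds (2.86, 2.76 and 2.33) and the kinase fj (3.87, 4.25 and 4.25), which act between the cells of a tissue, were low.

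Beside 51% of all genes, 9 of 21 nuclear receptor and ecdysone response genes (42.9%) were above the receptor level. The ecdysone receptor subunits EcR (8.11, 8.42 and 8.23) and usp (11.08, 11.00 and 10.97) were among them, with br at 11.10 ± 0.03, Hnf4 at 10.78 ± 0.07, Hr78 at 10.60 ± 0.03, Hr39 at 9.59 ± 0.10, Hr96 at 9.45 ± 0.07, ERR at 9.35 ± 0.06 and ftz-f1 at 9.12 ± 0.07. The other probe sets of br averaged 10.28, 7.35, 6.32 and 5.55. The embryonic or neural receptors tll, dsf, kni and eg were at or below background, with means from 2.63 to 2.83. Enzymes of ecdysone synthesis were low apart from nvd (7.17, 7.23 and 7.28), with spo at 6.35 ± 0.09, dib at 5.67 ± 0.08, sad at 4.70 ± 0.15 and sro at 4.20 ± 0.29. Both spok (2.55 ± 0.18) and shd (3.08 ± 0.11), which makes the active hormone, were at or below background. Of 11 transmitter and peptide receptors, mth (10.96, 10.96 and 10.97) alone exceeded the receptor level. The rest (5-HT1A, 5-HT2A, 5-HT7, Dop1R1, Dop2R, Octbeta1R, Octbeta2R, AdoR, mAChR-B and AkhR) had means from 2.17 to 4.78.

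Core energy metabolism was mostly in the upper group, and some enzymes had 1 paralog above the receptor level and others below it. Of 13 glycolysis genes, 9 (69.2%) were above the receptor level, beside 51% of all genes. Hexokinase A (Hex-A) read 9.78, 9.75 and 9.72, and Hex-C, Hex-t1 and Hex-t2 had means of 4.33, 3.51 and 3.66. Phosphoglycerate mutase Pglym78 stood at 11.20 ± 0.02 and its paralog Pglym87 at 3.61 ± 0.19. The other steps were at 8.02 ± 0.10 for Pfk, 10.14 ± 0.07 for Pgk, 10.27 ± 0.05 for Tpi, 10.78 ± 0.03 for Pgi, 11.48 ± 0.04 for Ald1, 11.79 ± 0.02 for Gapdh1 and 11.92 ± 0.01 for Eno. The measured pentose phosphate genes Taldo (12.16 ± 0.02), Rpe (11.39 ± 0.02) and Rpi (10.49 ± 0.03) were all above the level. Gluconeogenic Pepck1 (11.71 ± 0.02) and PCB (11.66 ± 0.01) were in the upper group, while glucose-6-phosphatase (G6P) read 3.63, 3.94 and 3.50 and Pepck2 stood at 6.24 ± 0.08. Trehalose is the main blood sugar of flies, made chiefly by the fat body. Its synthase Tps1 read 4.05, 4.46 and 4.23, whereas trehalase (Treh, 10.45 ± 0.06) and the transporter Tret1-1 (8.99 ± 0.09) were present. The glycogen genes Glys (10.91 ± 0.02), Glyp (9.25 ± 0.03), AGBE (8.64 ± 0.10), UGP (9.95 ± 0.02) and Pgm1 (9.39 ± 0.02) were present as well.

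All 22 oxidative phosphorylation genes were above the receptor level, with a median of 12.38. They ranged from 9.92 (ND-75) to 12.91 (sesB, an ADP/ATP carrier), and Ant2, another such carrier, stood at 10.46 ± 0.01. Of 14 genes of pyruvate dehydrogenase and the citric acid cycle, 12 (85.7%) were above the receptor level, beside 51% of all genes. The exceptions were mAcon2 at 3.55 ± 0.19, beside its paralog mAcon1 at 12.12 ± 0.06, and Fum2 at 4.70 ± 0.22. The measured genes of fatty acid oxidation, whd, CPT2, Mtpbeta, yip2, scu and wal, were all above the level, with means from 10.36 to 11.72. For fatty acid synthesis, FASN1 read 12.60, 12.64 and 12.72, FASN2 5.87, 6.11 and 6.08, and FASN3 2.71, 2.45 and 2.60. ACC (11.20 ± 0.03), Desat1 (11.74 ± 0.08), the lipogenic factor SREBP (12.50 ± 0.01) and its escort SCAP (10.70 ± 0.05) were present. On the lipid droplet, Lsd-1 was above the receptor level and Lsd-2 was not, at 3.27, 4.25 and 3.80, and the lipase bmm stood at 10.24 ± 0.03.

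Nucleotide and amino acid metabolism was expressed almost in full. Of 10 purine genes, Prat (10.88 ± 0.05), Paics (11.28 ± 0.04), Adss (12.50 ± 0.04), bur (10.95 ± 0.04), ras (10.81 ± 0.003), Aprt (9.85 ± 0.11), Pfas (9.81 ± 0.03), Adsl (9.37 ± 0.03) and Gart (8.26 ± 0.04) were above the receptor level. Prat2, the paralog of the enzyme of the committed step, was below background at 2.46, 2.66 and 2.84. The 8 pyrimidine and deoxynucleotide genes r, r-l, Dhod, Ts, dUTPase, RnrL, Ctps and dnk had means from 9.89 to 12.19. Of 15 amino acid and one-carbon genes, 14 were above the level, led by Shmt (12.43 ± 0.01), Ahcy (11.99 ± 0.02) and Got2 (11.95 ± 0.01). Gnmt, a methyltransferase known for the fat body, read 4.72, 4.45 and 4.36. Of 11 iron and heme genes, Fer1HCH (12.81 ± 0.04), FeCH (11.04 ± 0.03), Mvl (10.75 ± 0.01), mfrn (10.34 ± 0.02), Coprox (10.02 ± 0.06), Ppox (10.02 ± 0.05), Alas (9.55 ± 0.04), Pbgs (9.46 ± 0.05), Tsf3 (7.69 ± 0.03) and Fer2LCH (7.43 ± 0.05) were above it. The serum transferrin Tsf1 read 5.15, 4.94 and 4.88.

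Most pigment, tyrosine and P450 genes were not above the receptor level, while most glutathione transferases were. Of 12 pigment and tyrosine genes, only Pu, which starts the synthesis of pteridines and of the cofactor biopterin, was above the receptor level, at 9.12, 9.13 and 9.34. Both ple and e were at or below background, and Ddc (4.49 ± 0.31), t, y, st, bw, cn, ry, Tdc1 and Tdc2 had means up to 6.01. Cytochrome P450 genes, many of which act on foreign compounds and hormones, were above the receptor level in 14 of 80 cases, led by Cyp9f2 (11.09, 11.15 and 11.18), Cyp4e2 (9.79 ± 0.12) and Cyp28a5 (9.68 ± 0.03). Glutathione transferases, which conjugate such compounds, were above it in 24 of 34, led by GstT4 (12.82 ± 0.02), GstT1 (12.33 ± 0.01) and GstO3 (12.22 ± 0.04). Against the 51% of all genes, the share was lower in the P450 family and higher in the transferases. Close paralogs of these families can share probes, so single members are less certain than the family counts.

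**Figure D4:**
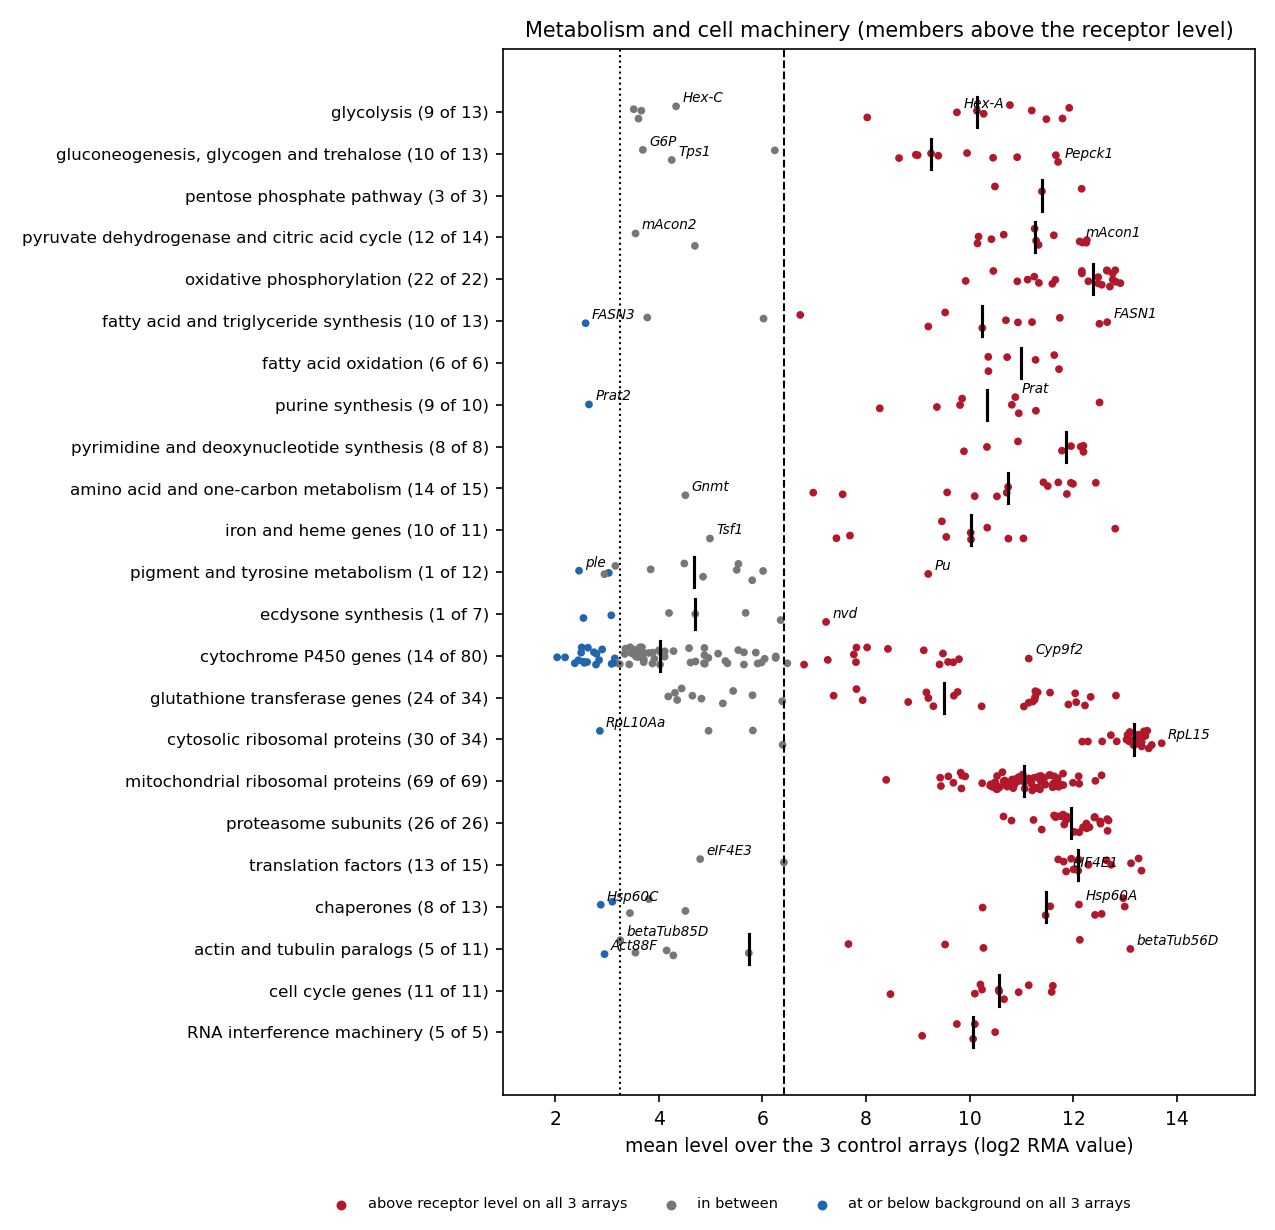
Mean level of each member over the 3 control arrays (x axis, log2 RMA value) for 23 lists of metabolic and cell machinery genes (y axis, with the number of members above the receptor level out of those measured). Each point is a gene, coloured by its class, black bars are list medians, and the dotted and dashed lines are the background and the receptor level. Core pathways lie mainly right of the dashed line with some members far to the left, and P450, pigment and ecdysone synthesis genes lie mainly left.

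The basic machinery of the cell was present with marked differences between paralogs. All 69 mitochondrial ribosomal proteins (8.39 to 12.54) and all 26 proteasome subunits (10.65 to 12.68) were above the receptor level. Of 34 cytosolic ribosomal proteins, 30 were above it, with a median of 13.16 over the list. The other 4, RpL10Aa (2.71, 3.04 and 2.83), RpS28a (4.96 ± 0.07), RpS10a (5.81 ± 0.13) and RpS5b (6.39 ± 0.07), are duplicate copies of ribosomal protein genes. Another such copy, RpS19b (12.17 ± 0.02), was above the level. Of 15 translation factors, 13 were above it, and eIF4E3 (4.80 ± 0.20) lay far from eIF4E1 (11.86 ± 0.05). Hsp60A stood at 12.11 ± 0.04, and its paralogs Hsp60B, Hsp60C and Hsp60D at 3.10, 2.88 and 3.81. Among cytoskeletal paralogs, the beta-tubulins betaTub56D (13.10 ± 0.03), betaTub60D (12.12 ± 0.03) and betaTub97EF (9.52 ± 0.08) and the tubulins gammaTub37C (10.26 ± 0.03) and alphaTub85E (7.66 ± 0.04) were above the level. The testis tubulin betaTub85D (3.25 ± 0.19), the oocyte tubulin alphaTub67C (3.55 ± 0.13), alphaTub84D (5.74 ± 0.19) and the muscle actins Act79B (4.28 ± 0.16), Act87E (4.15 ± 0.45) and Act88F (2.95 ± 0.12) were not. The 11 cell cycle genes CycB, CycB3, CycD, CycE, Cdk2, Cdk4, E2f2, Rbf, fzy, fzr and aurB had means from 8.47 to 11.60. The RNA interference genes Dcr-2 (10.49 ± 0.02), r2d2 (9.75 ± 0.06), loqs (10.06 ± 0.02), drosha (10.10 ± 0.02) and pasha (9.08 ± 0.10) were all above the level.

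The share of genes above the receptor level was similar on the X chromosome and the autosomal arms, and adjacent genes tended to share their class. On the X chromosome, 1033 of 1873 genes (55.2%) were above the receptor level, against 5023 of 9951 (50.5%) on the major autosomal arms, and the small chromosome 4 had 36 of 65 (55.4%). Over all genes the X median exceeded the autosomal median by 0.96 log2 units (0.93, 0.95 and 0.95 on the 3 arrays). Among genes above the receptor level the X median was 10.02 and the autosomal median 10.17, a difference of -0.15 (-0.14, -0.13 and -0.16), so the sign depended on whether low genes were counted. In 8377 adjacent pairs of measured genes that do not overlap, the next gene was above the receptor level in 71.3% of cases where a gene was above it and in 30.4% where it was not. Of 77 long noncoding RNA genes, 15 (19.5%) were above the level, against 51.5% of 11791 protein-coding genes. Genes of an arm or a neighbourhood are not independent, and these shares are descriptions.

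The control arrays were close to each other where signal was high. Array medians over all probe sets were 4.94, 4.90 and 4.91, and pairs of arrays correlated across probe sets with r from 0.997 to 0.998. The median SD of a gene over the 3 arrays was 0.0455 above the receptor level, 0.1383 between the levels and 0.1151 at or below background. Among genes with a mean above the receptor level the widest spread belonged to CG10804 (6.65, 5.87 and 6.88), Ekar (6.38, 6.01 and 7.01) and eEF1alpha2 (6.86, 6.17 and 6.21). CG10804 was below that level on 1 array, and Ekar, eEF1alpha2 and Reph were below it on 2 arrays each. The next were Nxf3, CG13029, Reph, Ten-a, CG12766, CG34002, CG6071, CG13458 and CG42674, with SDs from 0.28 to 0.37. With 3 arrays, an SD is itself imprecise.

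A group of dim genes differed between replicates 1 and 2. The SD exceeded 0.5 in 88 genes, none of them above the receptor level. Replicate 1 was the highest array in 64 of the 88 and replicate 2 the lowest in 70, whereas over all genes replicate 1 was highest in 27.1% and replicate 2 lowest in 27.3%. The 12 genes with the widest spread, picked after their values were seen, were sls, CG34021, CG32228, Hr3, CG5681, djl, Antp, OtopLa, CG14598, Tie, CG42784 and CG13284. The titin gene sls read 6.62, 3.36 and 5.15, the ecdysone-induced receptor Hr3 5.54, 3.24 and 4.28, and the testis gene djl 5.33, 3.11 and 4.59. Replicate 3 lay between the others in each of these. What set these arrays apart was not tested, and the levels given here for sls, Hr3, Antp, djl and Tie rest on which array is read.

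**Figure D5:**
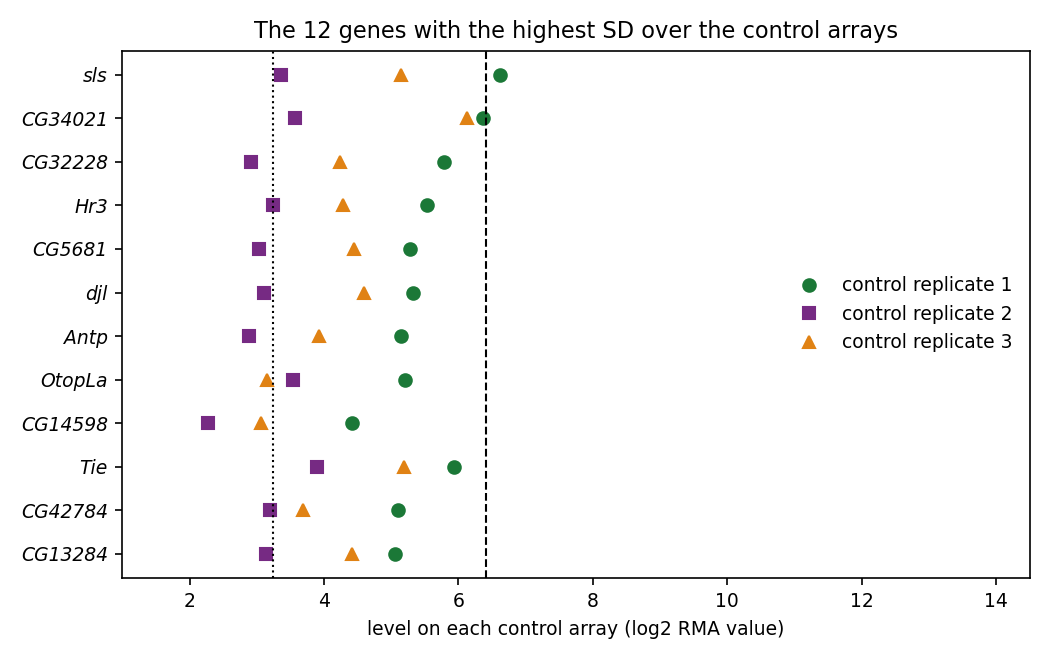
Level on each control array (x axis, log2 RMA value; circles replicate 1, squares replicate 2, triangles replicate 3) of the 12 genes with the highest SD (y axis). The dotted and dashed lines are the background of 3.25 and the receptor level of 6.41. Replicate 1 is the highest array in all 12 genes and replicate 2 the lowest in all but OtopLa.

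Different probe sets of a gene often disagreed on its class. Of 1094 genes with several probe sets, 544 were above the receptor level on the brightest, and in 303 of these (55.7%) some other probe set was not above it. In 32 of them a probe set lay at or below background on all 3 arrays. Dsx is an example, as is Strn-Mlck, whose highest probe set had a mean of 9.12 and whose lowest 2.71. The peroxidase Pxn had 11.99 and 5.72. For the 10888 genes with 1 probe set no such comparison exists, and their low values carry this uncertainty unmeasured.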

How the data were processed

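Control S2 cells were described from 3 arrays, grouped by their titles. The deposited values are log2 expression values per probe set, which the authors produced with RMA, per the submitters' processing notes (no version named in the sources used here). That method subtracts background, equalises array distributions by quantiles and combines the probes of a set, so a change common to most transcripts would be hidden. Of 18952 probe sets, 183 array controls were left out. Symbols came from the platform annotation, updated by gene ID against a RefSeq gene table (Release 6 plus ISO1 MT), which matched 13544 of 13647 probe sets with 1 symbol. The 402 probe sets with several symbols and 4720 with none were not named. The table served for names, arms and overlaps, and no coordinates are printed. Overlap was of gene spans on either strand.

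The background and receptor levels were 95th percentiles (3.25 and 6.41) over the control arrays. No groups were compared and no statistical test was run. SD is over 3 arrays, whose number limits the precision. The 64 gene lists and the rule for named genes were written with earlier results of these data known. The rule took the 30 highest genes, list members, the 3 genes on each side of each level and the 12 highest SDs above the receptor level. Ligand and receptor roles were assigned after values were seen. Python 3.11.15, pandas 2.3.3, numpy 2.4.6 and matplotlib 3.10.9 were used. Alternatives were other background and benchmark levels, other rules over arrays and probe sets, centring, leaving out each array and, added after seeing the data, leaving out overlapping genes. Planned summaries of promoter motifs and protein length by level were not run, because no sequence tables were used here.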

Additional observations from a re-analysis of the deposited data

How the results depend on the processing

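The number of genes at or below background depended on how that level was set, with 1631 at the 95th percentile of the tag probe sets, 2911 at the highest tag probe set (3.83) and 586 at their median (2.73). The counts above background (7856 to 10879) and above the receptor level (4596 to 6593) stayed within 1.5 times their values under every alternative that kept the overlapping genes. With genes that overlap another gene left out, an alternative chosen after seeing the data, 6431 genes were left, and 4895 were above background, 1073 at or below it and 2891 above the receptor level. Those are 76.1%, 16.7% and 45% of the genes left, so the lower counts come mainly from fewer genes. Leaving out each array in turn gave 9572 to 9760 genes above background, 1752 to 1975 at or below it and 6112 to 6143 above the receptor level. Without replicate 2, the count of Hox genes above background was 2 of 4 instead of 0. The X minus autosome difference turned from 0.96 over all genes to -0.29 among genes above background and -0.15 among genes above the receptor level. The median SD was 0.0815 with arrays centred on their medians against 0.0740. With the receptor level at the 90th percentile (5.50) the count above it moved by over 1.5 times in 11 of 64 lists, and at the 99th (8.58) in 14. It moved as far in 27 lists without the probe sets ending in _s_at, _x_at or _a_at and in 50 without overlapping genes, where fewer members were measured. At the 90th and 99th percentiles, crystal cell and lamellocyte genes numbered 7 and 2 of 10 above the level in place of 4. Neuronal genes numbered 10 and 0 of 26 in place of 4, and P450 genes 22 and 7 of 80 in place of 14. With the median of a gene's probe sets, muscle genes above it fell from 4 to 1 and FGF genes from 1 to 0. The promoter window alternative was not run, because no promoter sequences were used here. No paired analysis was possible because no groups were compared. Depth is not defined for arrays, and signal near background limits what can be said of the low genes.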
